A study of Mus musculus with 6 samples.

Results

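The expression of 9 genes that B lymphocytes use to sense antigen was followed in mouse bone marrow, 5 encoding surface proteins (Ms4a1, Cd22, Cd72, Cr2 and Cd24a) and 4 encoding signalling enzymes (Blk, Syk, Btk and Plcg2). The 9 genes were chosen by name from the 20097 genes listed in the files, and all 9 were listed and passed the filter on low values. The study isolated c-Kit+ bone marrow cells, a fraction rich in blood stem and progenitor cells and named for the receptor encoded by Kit. Poly-A RNA of 6 libraries was sequenced, 3 with the genotype label WT and 3 with the label Runx1 KO, where KO stands for a knocked-out gene and Runx1 encodes a transcription factor of blood formation; the labels give no agent, age, strain, driver or time of deletion, and do not say whether the 3 libraries of a group came from separate mice, so that p-values measure the spread between these libraries only. Values are normalised read counts, that is reads per gene divided by a size factor of the library. All directions run from WT to Runx1 KO.

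In a B cell, the antigen receptor signals through the chains Cd79a and Cd79b. Kinases of the SRC family such as Blk and Lyn phosphorylate these chains, Syk docks on them, and Syk together with Btk activates the phospholipase Plcg2, which produces the messengers for calcium release and protein kinase C. Cr2, the receptor for complement fragments, is part of a co-receptor that strengthens the signal, while Cd22, a lectin that binds sialic acid, and Cd72 recruit phosphatases that weaken it. Ms4a1 encodes CD20, a membrane protein of B cells, and Cd24a encodes a small glycan-rich surface protein also found on many other marrow cells. In adult marrow Ms4a1, Cd22, Cd72, Cr2 and Blk are mainly known from the B lineage, whereas Syk, Btk, Plcg2 and Cd24a are also used by myeloid, erythroid or platelet-forming cells.

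The libraries held between 23297526 and 26793380 reads over the listed genes, and replicate pairs correlated with Pearson's r from 0.979 to 0.990 across genes. Runx1 itself had 3031, 2799 and 3497 normalised reads in the 3 WT libraries and 6648, 6720 and 5830 in those labelled Runx1 KO, so the transcript was higher under the knockout label (log2 change 1.04, SE 0.10, limma adjusted p 0.00163). Group names below are those of the labels, and values per gene cannot show a missing exon. Replicate 1 stood apart within both groups in its B-lineage RNA. Cd79a, for example, had 5934 normalised reads in WT replicate 1 against 1410 and 2489 in the other WT libraries, and 381 in Runx1 KO replicate 1 against 33.7 and 31.8 in the other Runx1 KO libraries. Counts of called genes in the lists below are therefore also given without replicate 1 of both groups, where 13.2% of 15487 tested genes were called lower.

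The 5 genes known mainly from the B lineage fell together in the libraries labelled Runx1 KO, to between 1.80% and 20.0% of their WT means, and the 4 genes shared with other blood cells moved by less than 0.5 on the log2 scale. By limma over 15410 genes (Benjamini-Hochberg adjusted p under 0.05), 6 of the 9 genes were called lower and 0 higher, where 11.3% of all tested genes were called lower and 10.6% higher. The 6 genes called lower were Ms4a1, Cd22, Cd72, Cr2, Blk and Plcg2. At an unadjusted p under 0.05 by limma, 1 gene was higher, Btk, and edgeR and DESeq2 called 0 of the 9 higher. The median log2 change of the 9 genes was -2.38, against -0.0042 over all genes tested. In 8 of the 9 genes every library labelled Runx1 KO lay below every WT library, a pattern held by 21.9% of the tested genes, and in Btk every one lay above, as in 21.4%; over both directions groups did not overlap in 43.3% of the tested genes. A log2 change of -2 or less was seen in 5 of the 9 genes and in 3.17% of the tested genes. Without replicate 1 of both groups, limma again called 6 of the 9 genes lower and 0 higher. In bulk RNA, fewer B-lineage cells and less RNA per cell cannot be told apart.

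**Figure D1:**
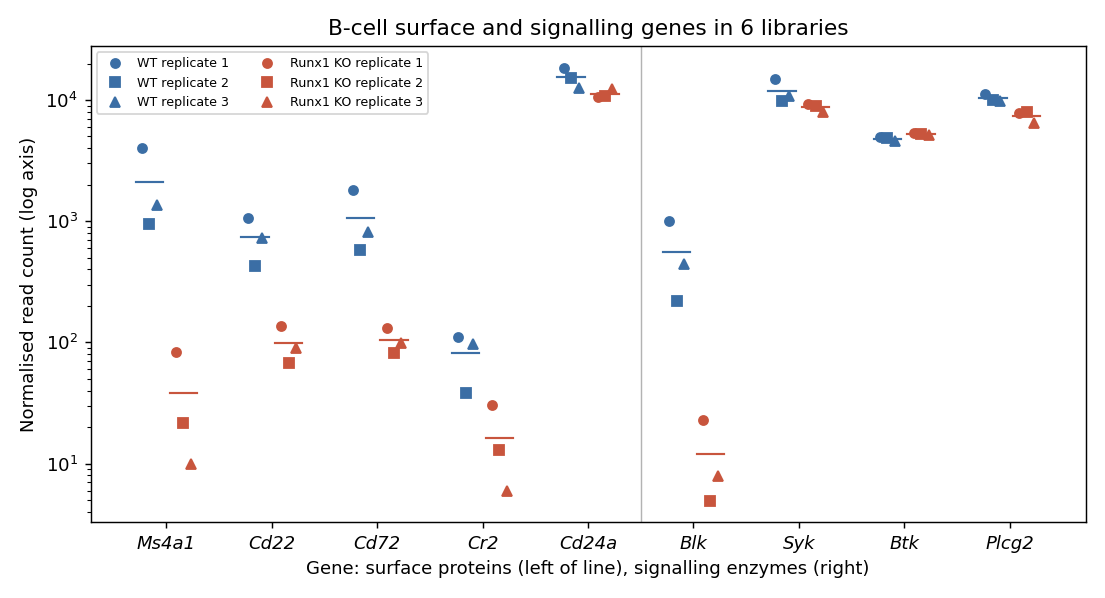
Normalised read counts on a log axis for each of the 9 genes in each of the 6 libraries; symbols give the replicate, colours the group, and short lines the group means. Ms4a1 and Blk show the widest gap between the groups, and Btk sits between 4580 and 5330 in all 6 libraries.

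Among the surface genes, Ms4a1 (ENSMUSG00000024673; GRCm38 chromosome 19, 11249675 to 11266241, minus strand) showed the largest difference. Its normalised read count was 4035, 941 and 1364 in WT replicates 1 to 3 and 82.6, 21.8 and 9.95 in Runx1 KO replicates 1 to 3. The lowest WT library was above the highest library labelled Runx1 KO, and replicate 1 was the highest of its group on both sides. The means were 2114 ± 1678 and 38.1 ± 39.0 (SD, n = 3). The limma log2 change was -5.97 (SE 0.80, limma adjusted p 0.00432). It compares group means of log2(value + 1), so it differs from the log2 ratio of the means. Ordered from the largest fall, Ms4a1 ranked 8 among the 15410 tested genes. Runx1 KO replicate 3 still held 10 reads of Ms4a1, so the transcript was low and not absent.

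Cd22 (ENSMUSG00000030577; chromosome 7, 30865402 to 30880342, minus strand), the inhibitory lectin, had 1063, 430 and 730 normalised reads in the WT libraries and 137, 67.4 and 90.5 in the libraries labelled Runx1 KO. The groups did not overlap, and the spread between the highest and lowest library was 2.47-fold in WT and 2.03-fold in Runx1 KO, narrower than for Ms4a1 (4.29-fold and 8.31-fold). Cd22 fell by 2.87 on the log2 scale (SE 0.37, limma adjusted p 0.00382). Cd72 (ENSMUSG00000028459; chromosome 4, 43446462 to 43454628, minus strand), the other inhibitory receptor, had 1798, 580 and 809 normalised reads in WT and 131, 82.3 and 98.5 in Runx1 KO. It fell by 3.20 (SE 0.40, limma adjusted p 0.00358), and its 3 libraries labelled Runx1 KO lay within 1.59-fold of each other. Both inhibitory receptors thus kept a residue of 13.3% (Cd22) and 9.78% (Cd72) of their WT means, where Ms4a1 kept 1.80%.

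The exons of Cd72 share 1423 bases with those of Tesk1, a kinase gene on the opposite strand. Tesk1 had from 303 to 364 normalised reads in WT and from 383 to 436 in Runx1 KO. The libraries mark the strand, but whether the counting used it is not given in the sources used here, so reads of this shared stretch could be assigned to either gene or to none. Cd22 shares 479 exon bases with an antisense gene, Gm29439, which was not analysed here.

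Cr2 (ENSMUSG00000026616; chromosome 1, 195136811 to 195176716, minus strand), the complement receptor, had the lowest normalised read counts of the 9 genes in WT. It had 110, 38.3 and 97.8 normalised reads in WT and 30.3, 12.9 and 5.97 in Runx1 KO, so that the groups were separated only by the gap between 38.3 and 30.3. The log2 change was -2.38 (SE 0.62, limma adjusted p 0.0352). This call was lost without WT replicate 1 (adjusted p 0.0908), WT replicate 3 (0.0962), Runx1 KO replicate 2 (0.107) or Runx1 KO replicate 3 (0.0908), and held without replicate 1 of both groups (0.0208), with log2 changes from -2.94 to -1.86 over the 7 fits that left out libraries.

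Cd24a (ENSMUSG00000047139; chromosome 10, 43578284 to 43584265, plus strand) was the most abundant of the 9 genes and did not pass the threshold. It had 18513, 15254 and 12548 normalised reads in WT and 10671, 10797 and 12233 in Runx1 KO; the lowest WT and the highest Runx1 KO library differed by little. The log2 change was -0.44 (95% interval -0.77 to -0.12, limma adjusted p 0.0605). DESeq2 called it lower (adjusted p 0.00663), and limma did so without WT replicate 3 (adjusted p 0.0242). The mouse genome carries further copies related to Cd24a, so its level depends on how reads shared with them were treated, which the sources used here do not give.

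The sequences around the RefSeq start sites of 3 of the surface genes that fell are shown because these genes moved together. RefSeq promoter windows (GRCm38.p6, 250 bases before to 50 after the start site, on the gene's strand) were found for 6 of the 9 genes: Cd22, Cr2, Cd72, Syk, Btk and Plcg2. Capitals mark matches on either strand to the RUNX core TGTGGT, the ETS core GGAAGT or the palindromic EBF core CCCNNGGG; no matches overlapped.

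Cd22, chr7:30878979-30879278, minus strand: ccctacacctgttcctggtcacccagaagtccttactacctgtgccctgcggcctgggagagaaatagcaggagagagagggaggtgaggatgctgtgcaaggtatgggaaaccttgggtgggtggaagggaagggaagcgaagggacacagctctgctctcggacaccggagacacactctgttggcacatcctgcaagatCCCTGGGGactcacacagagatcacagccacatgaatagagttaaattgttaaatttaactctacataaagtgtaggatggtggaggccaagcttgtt
Cd72, chr4:43454577-43454876, minus strand: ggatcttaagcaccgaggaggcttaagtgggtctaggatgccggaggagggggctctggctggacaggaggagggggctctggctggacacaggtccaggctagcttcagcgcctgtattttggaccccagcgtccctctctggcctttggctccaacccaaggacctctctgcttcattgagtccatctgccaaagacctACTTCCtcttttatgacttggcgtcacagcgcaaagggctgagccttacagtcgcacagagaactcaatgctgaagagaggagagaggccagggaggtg
Cr2, chr1:195176670-195176969, minus strand: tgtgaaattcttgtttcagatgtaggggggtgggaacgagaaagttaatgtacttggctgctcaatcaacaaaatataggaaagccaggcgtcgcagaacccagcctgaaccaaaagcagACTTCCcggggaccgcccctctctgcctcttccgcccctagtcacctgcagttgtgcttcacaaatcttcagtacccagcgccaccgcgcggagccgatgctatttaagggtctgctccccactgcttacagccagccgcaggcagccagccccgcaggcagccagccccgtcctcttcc

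The Cd22 window lay inside the GENCODE span of the gene, which starts at 30880342 on the minus strand. In this window an EBF match began 48 bases upstream of the RefSeq start site. An ETS match lay 49 bases upstream in Cd72 and 130 bases upstream in Cr2, in both cases as its reverse complement ACTTCC. The RUNX core was in none of the windows of the 6 genes; a lack of match says only that these letters are not in these 300 bases. Of 32851 promoter windows in the table, 16.8% held the RUNX core, 23.8% the ETS core and 13.7% the EBF core. The windows of Btk and Plcg2 held 0 matches, and 1 of the 2 Syk windows held an ETS match.

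Among the signalling enzymes, Blk (ENSMUSG00000014453; chromosome 14, 63372836 to 63417037, minus strand), the SRC-family kinase of B cells, resembled Ms4a1 in the size of its fall. Normalised read counts were 999, 219 and 442 in WT and 23.0, 4.96 and 7.96 in Runx1 KO, with no overlap. The means were 553 ± 402 and 12.0 ± 9.68 (SD, n = 3). The limma log2 change was -5.41 (SE 0.67, limma adjusted p 0.00346), and Blk ranked 15 among the tested genes. The 3 libraries labelled Runx1 KO held 22, 5 and 8 reads of Blk, so their order among each other rests on few reads.

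Plcg2 (ENSMUSG00000034330; chromosome 8, 117498291 to 117635142, plus strand), the phospholipase downstream of the receptor, changed little in size but evenly. It had 11173, 9981 and 9760 normalised reads in WT and 7863, 7922 and 6472 in Runx1 KO. Libraries of a group lay within 1.14-fold (WT) and 1.22-fold (Runx1 KO) of each other, and the groups did not overlap. The log2 change was -0.48 (SE 0.10, limma adjusted p 0.0157), and the call held in each fit that left out a library, with a highest adjusted p of 0.0419.

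Syk (ENSMUSG00000021457; chromosome 13, 52583173 to 52648792, plus strand), the kinase that docks on the receptor chains, had 15022, 9726 and 10772 normalised reads in WT and 9231, 8866 and 7992 in Runx1 KO. WT replicate 1 was the high library, and the remaining 5 lay between 7992 and 10772. The log2 change of -0.42 did not pass (95% interval -0.79 to -0.05, limma adjusted p 0.0948), although DESeq2 called it lower (adjusted p 0.0223). Without WT replicate 1 the log2 change was -0.24. Btk (ENSMUSG00000031264; chromosome X, 134542336 to 134583570, minus strand), the TEC-family kinase, had 4925, 4815 and 4580 normalised reads in WT and 5330, 5236 and 5096 in Runx1 KO. This was the steadiest of the 9 genes, with a log2 change of 0.13 (95% interval 0.0029 to 0.26, limma adjusted p 0.125). Scaled to library totals, which moves the median of all genes up by 0.08, the change of Btk was 0.21 and passed (limma adjusted p 0.0224).

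**Figure D2:**
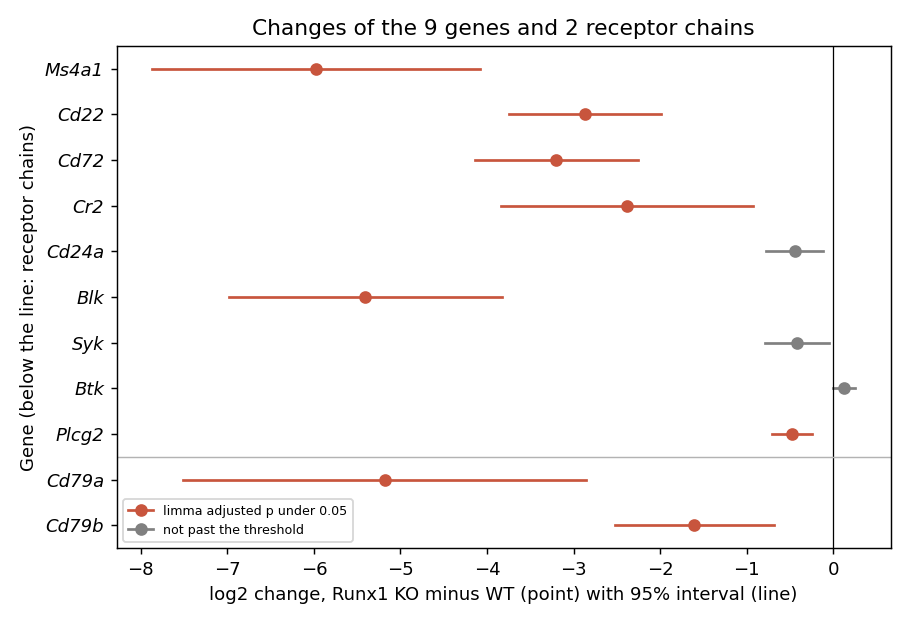
Log2 changes (Runx1 KO minus WT, limma) with 95% intervals for the 9 genes and for Cd79a and Cd79b; red marks an adjusted p under 0.05. In this fit Ms4a1 (-5.97) and Blk (-5.41) lie with Cd79a (-5.18). Cd22, Cd72 and Cr2 lie between -3.20 and -2.38, and Cd24a, Syk, Btk and Plcg2 lie within 0.5 of 0.

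Levels were compared between genes as normalised reads per kilobase of exon, using the merged exons of GENCODE M21. In WT the order was Cd24a (5984 ± 1158, SD, n = 3), Plcg2 (2398 ± 177), Btk (1516 ± 55.9), Syk (1265 ± 300), Ms4a1 (342 ± 271), Cd72 (310 ± 189), Blk (205 ± 149), Cd22 (147 ± 62.9) and Cr2 (10.1 ± 4.72). The libraries of Btk and Syk overlapped, as did those of each neighbouring pair from Ms4a1 to Cd22. In Runx1 KO the order was Cd24a (4354 ± 336), Plcg2 (1726 ± 191), Btk (1658 ± 37.3), Syk (929 ± 68.0), Cd72 (30.3 ± 7.22), Cd22 (19.5 ± 7.04), Ms4a1 (6.16 ± 6.30), Blk (4.44 ± 3.59) and Cr2 (2.02 ± 1.55). Here the libraries of Plcg2 and Btk overlapped, those of Cd72 and Cd22 overlapped, and so did the neighbours from Ms4a1 to Cr2. Ms4a1 thus stood above Cd22 per kilobase in the WT means and below it in each library labelled Runx1 KO. Across those libraries the 2 genes were separated only by the gap between 13.357 (highest Ms4a1) and 13.366 (lowest Cd22).

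The receptor's own signalling chains gave the scale for these falls. Cd79a fell by 5.18 (SE 0.99, limma adjusted p 0.0130), whereas its partner chain Cd79b had 5650, 1811 and 2584 normalised reads in WT and still 1246, 904 and 832 in Runx1 KO (log2 change -1.61, SE 0.39, limma adjusted p 0.0288). Both calls were lost in at least 1 fit that left out a library (highest adjusted p 0.0525 for Cd79a and 0.0965 for Cd79b). The log2 change of Cd79a was smaller by edgeR (-4.46) and DESeq2 (-4.47). Those of Ms4a1 (-5.79 and -5.80) and Blk (-5.52 and -5.54) were larger than that of Cd79a in both fits. These differences between genes were not tested. The log2 ratio of Cd79b to Cd79a was between -0.07 and 0.36 in the WT libraries and 1.71, 4.70 and 4.67 in the libraries labelled Runx1 KO.

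Relative to Cd79a of the same library, on the log2(value + 1) scale, Blk stood at -2.57, -2.68 and -2.49 in WT and at -3.99, -2.54 and -1.87 in Runx1 KO. These ranges overlapped (difference -0.22, two-sided exact permutation p 0.9). Ms4a1 relative to Cd79a overlapped as well (difference -0.79, exact permutation p 0.2). Cd22 stood at -2.48, -1.71 and -1.77 in WT and at -1.47, 0.98 and 1.48 in Runx1 KO, a non-overlapping difference of 2.32 (exact permutation p 0.1, the smallest that 3 against 3 libraries can give). Cr2 did not overlap either (difference 2.80, exact permutation p 0.1), while Cd72 did (1.98, exact permutation p 0.2). The order turned with the chain chosen. Relative to Cd79b, a denominator added after these values were seen, Blk (difference -3.80), Ms4a1 (-4.37), Cd72 (-1.59) and Cd22 (-1.26) were lower without overlap (exact permutation p 0.1 each), and Cr2 overlapped (-0.78, exact permutation p 0.3). Cd24a, Syk, Btk and Plcg2 stood higher without overlap relative to both chains. Over the 38 ratios compared, the lowest Benjamini-Hochberg adjusted p of these exact permutation tests was 0.127, so none passed.

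**Figure D3:**
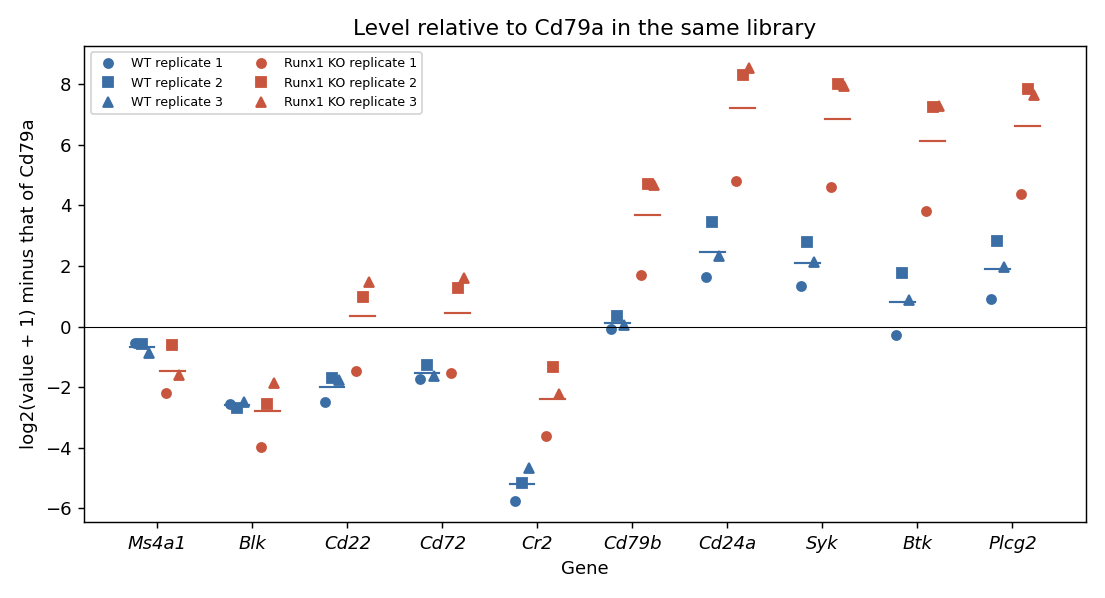
Log2(value + 1) of each gene minus that of Cd79a in the same library; symbols give the replicate, colours the group, and lines the group means. Blk and Ms4a1 overlap between the groups, with a wider spread under the Runx1 KO label, while Cd22, Cr2, Cd79b and the widely expressed genes stand higher relative to Cd79a under the Runx1 KO label, most of all in replicates 2 and 3.

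Runx1 KO replicate 1 showed how unevenly the genes varied within a group. It exceeded the higher of the other 2 libraries labelled Runx1 KO 3.79-fold in Ms4a1, 2.89-fold in Blk and 2.35-fold in Cr2, but 1.51-fold in Cd22 and 1.33-fold in Cd72. For Cd79a and Cd79b the corresponding factors were 11.3 and 1.38, and for Syk, Btk and Plcg2 they lay between 0.993 and 1.04. WT replicate 1 likewise exceeded the next WT library 2.96-fold in Ms4a1, 2.26-fold in Blk and 2.22-fold in Cd72, and 1.02-fold in Btk.

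A list of 51 other genes of antigen receptor signalling and B-cell surface regulation was read from the same fit. All 51 were tested, and limma called 25 lower and 2 higher, with 24 not passing, or 49.0% lower and 3.92% higher against 11.3% and 10.6% of all tested genes; the median log2 change was -0.57. Without replicate 1 of both groups 31 were lower and 4 higher, where 13.2% of all tested genes were lower. Without Runx1 KO replicate 2 the counts were 13 and 1, and calls over all genes fell from 3370 to 1367. Beside Cd79a, large falls were seen in Fcrla (log2 change -4.96, SE 0.88), an Fc receptor-like protein inside B cells, Fcer2a (-3.53, SE 0.62), the low-affinity IgE receptor, and Cxcr5 (-3.31, SE 0.65), a chemokine receptor that guides B cells into follicles. Their limma adjusted p values were 0.0102, 0.00984 and 0.0145, and Cxcr5 lost its call without Runx1 KO replicate 2 (adjusted p 0.0594).

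The 2 genes that rose were Dapp1 and Pik3r1. Dapp1, an adaptor that binds phosphoinositide lipids, had 3795, 3883 and 4386 normalised reads in WT and 5465, 6193 and 5249 in Runx1 KO (log2 change 0.49, SE 0.09, limma adjusted p 0.0102). Pik3r1, a regulatory subunit of phosphoinositide 3-kinase, rose by 0.22 (SE 0.06, limma adjusted p 0.0353); this call was lost without any 1 of the libraries but Runx1 KO replicate 1 (limma adjusted p up to 0.143). Both sets of libraries were separated without overlap.

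Downstream of Plcg2, Prkcb, named after its values were seen, encodes a protein kinase C that carries the signal toward NF-kB. Prkcb had 3348, 2384 and 2176 normalised reads in WT and 1162, 1306 and 1101 in Runx1 KO (log2 change -1.13, SE 0.16, limma adjusted p 0.00521). It fell by more than Plcg2 itself on the log2 scale; the difference was not tested. Blnk, the adaptor that joins Syk to Btk and Plcg2, also named afterwards, had 1586, 466 and 785 against 479, 107 and 185 normalised reads. Its groups overlapped and it did not pass (log2 change -1.97, limma adjusted p 0.0595).

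Paralogues of the 9 genes were compared to see how each family stood, beside 11.3% lower and 10.6% higher over all genes tested by limma. In the SRC family 4 of 8 genes were called lower and 1 higher. Lyn, the main SRC-family kinase of many blood cells, changed by -0.67 (SE 0.13, limma adjusted p 0.0139) and Fgr, a myeloid member, by -1.92 (SE 0.36). Yes1, the broadly expressed member, rose from 23.9 ± 6.98 to 82.5 ± 16.2 normalised reads (SD, n = 3; log2 change 1.77, SE 0.29, limma adjusted p 0.00796). The log2 ratio of Blk to Lyn was -2.60, -4.42 and -3.44 in WT and -7.30, -9.03 and -8.35 in Runx1 KO, without overlap (difference -4.74, exact permutation p 0.1, the smallest possible).

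The 2 phospholipase C gamma genes moved in opposite directions. Plcg1, the broadly expressed isoform, had 1279, 1114 and 1247 normalised reads in WT and 1746, 1721 and 1576 in Runx1 KO (log2 change 0.47, SE 0.08, limma adjusted p 0.00863), while Plcg2 fell by 0.48. Their log2 ratio, Plcg2 to Plcg1, was 3.13, 3.16 and 2.97 in WT and 2.17, 2.20 and 2.04 in Runx1 KO, with spreads much smaller than the difference of -0.95 (exact permutation p 0.1, the smallest possible). Plcg2 stayed the more abundant of the 2 per kilobase in each library: its lowest value was 1506 normalised reads per kilobase, against a highest of 222 for Plcg1. The ratio of Btk to Tec, its nearest relative in myeloid and stem cells, was 2.31 ± 0.10 in WT and 2.33 ± 0.04 in Runx1 KO on the log2 scale (SD, n = 3; exact permutation p 0.9). Of the 5 TEC-family and 2 SYK-family genes limma and edgeR called 0, and DESeq2 called 1, Syk. At an unadjusted p under 0.05 in limma, 2 TEC-family genes and Syk were lower and Btk was higher.

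Without replicate 1 of both groups, limma called 3785 of 15487 tested genes, 2043 of them lower (13.2% of those tested). In that fit it called 5 of 8 SRC-family genes lower and 1 higher, 3 of 5 TEC-family genes lower and 1 of 2 SYK-family genes lower. It also called 4 of 8 lectins lower and 2 higher, 5 of 12 MS4A genes lower, and again Plcg2 lower and Plcg1 higher.

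**Figure D4:**
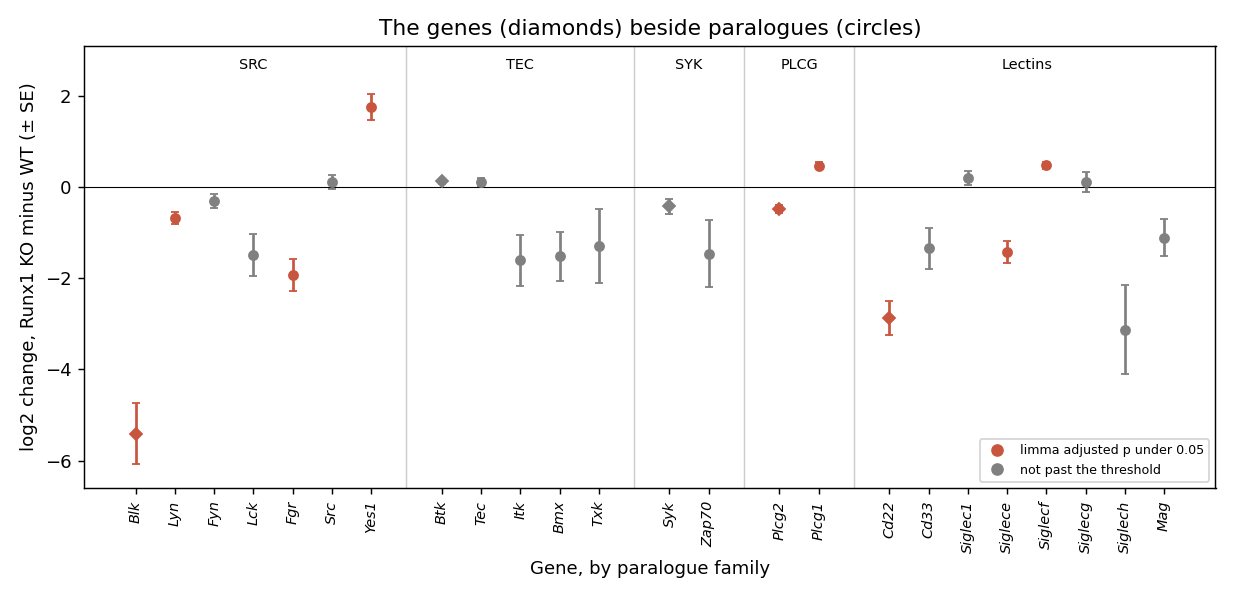
Log2 changes (± SE, limma) of Blk, Btk, Syk, Plcg2 and Cd22 (diamonds) beside paralogues (circles), red where the adjusted p was under 0.05. Blk at -5.41 is the lowest point, Yes1 at 1.77 the highest, and the Plcg2 and Plcg1 points lie on either side of 0.

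Among 8 sialic acid-binding lectins, Cd22 and Siglece, a myeloid lectin, were called lower and Siglecf, a lectin of eosinophils, higher. Siglece changed by -1.42 (SE 0.25, limma adjusted p 0.00972) and Siglecf by 0.48 (SE 0.08, limma adjusted p 0.00778). Siglecg, which restrains the antigen receptor as Cd22 does and binds the product of Cd24a, was named after its values were seen. It had 2088, 1093 and 1274 normalised reads in WT and 1558, 1505 and 1595 in Runx1 KO, overlapping, and did not pass (log2 change 0.12, SE 0.22, limma adjusted p 0.720). The log2 ratio of Cd22 to Siglecg was between -1.34 and -0.80 in WT and between -4.46 and -3.50 in Runx1 KO (exact permutation p 0.1). In the MS4A family, 3 of 12 tested genes were lower and 0 higher, against 11.3% and 10.6% of all tested genes (0 higher also at an unadjusted p under 0.05 in limma, and 0 in edgeR and DESeq2). Beside Ms4a1 these were Ms4a2, a chain of the IgE receptor of mast cells and basophils (log2 change -1.40, SE 0.14, limma adjusted p 0.00225), and Ms4a3, a gene of granulocyte progenitors (-0.65, SE 0.12, limma adjusted p 0.0107).

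The 5 genes outside the 9 whose log2 values over the 6 libraries lay closest to those of Cd22, by root mean square difference after centring, were Rtn1 (0.22), Grb7 (0.22), Tnfrsf13c (0.24), St6gal1 (0.26) and Scn4b (0.28). Tnfrsf13c encodes the receptor for the B-cell survival factor BAFF, and St6gal1 the enzyme that builds the sialic acid linkage bound by Cd22. Tnfrsf13c had 679 ± 433 and 77.5 ± 18.1 normalised reads and St6gal1 869 ± 517 and 107 ± 55.8 (SD, n = 3, WT and Runx1 KO). Rtn1, Grb7 and Scn4b were weak, with WT means of at most 63.8 normalised reads.

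Marker lists of other cells were read from the same fit, beside 11.3% lower and 10.6% higher over all tested genes, and their part in the results was not tested. Of 15 early B-lineage markers 9 were lower and 1 higher, Cd93, which stem and progenitor cells also express. The sum of the list ran from 16910 to 48510.4 normalised reads in WT and from 16288 to 22608 in Runx1 KO. Cd93 alone had from 8700 to 12105 normalised reads in WT and from 14812.5 to 18308 in Runx1 KO. Most of each Runx1 KO sum was thus Cd93, and the sums do not show how far the other early markers fell. Of 10 mature B-lineage markers 6 were lower, but their sums overlapped (15996 to 26015 against 18064 to 25918). Of 13 neutrophil markers 8 were lower and 0 higher (0 also at an unadjusted p under 0.05 in limma and 0 in edgeR and DESeq2), with sums from 319298 to 426161 in WT and from 161898 to 226963 in Runx1 KO. Neutrophil sums were thus lower in each library labelled Runx1 KO. Among the genes shared with other blood cells, Plcg2, Syk and Cd24a were lower in each of these libraries. Btk, also shared, was higher in each (5096 to 5330 against 4580 to 4925 in WT). For monocytes and macrophages 3 of 10 markers were lower (46045 to 47039 against 29331 to 36361), for mast cells and basophils 5 of 7 tested were lower and 1 higher (8782 to 10946 against 6398 to 8427), and for erythroid cells, which carry Cd24a, 5 of 11 were lower (22873 to 34377 against 16976 to 26525). Plasmacytoid dendritic cell markers were lower in 2 of 8, or 25% (11203 to 13278 against 8648 to 13806). Plasma cell markers were lower in 1 and higher in 1 of 5, or 20% each (9295 to 13478 against 6735 to 9359). T and NK markers were lower in 1 and higher in 1 of 10 (6226 to 7116 against 4620 to 5071), shares near those over all tested genes. The median log2 changes of these lists were -1.77, -0.083 and -1.06, in the same order. Stem and progenitor markers were higher in 6 of 10 (22254 to 26007 against 32256 to 37462), among them Kit (7979, 8455 and 8471 against 11507, 13684 and 12756), and megakaryocyte and platelet markers in 4 of 8 tested (3707 to 4588 against 4786 to 7189). Of all these markers, 1 plasmacytoid gene (Klk1) and 1 mast cell gene were at 0 in a library labelled Runx1 KO, and no early or mature B-lineage marker was. Without replicate 1 of both groups, 13 of 15 early and 7 of 10 mature B-lineage markers were lower, as were 9 of 13 neutrophil, 8 of 10 monocyte and macrophage, 6 of 10 T and NK, 6 of 8 plasmacytoid dendritic cell, 3 of 6 plasma cell, 5 of 7 mast cell and basophil and 5 of 11 erythroid markers. In that fit 1 marker was called higher in each of the early B-lineage, mature B-lineage, plasma cell and T and NK lists. The mast cell and basophil and the erythroid lists also had 1 higher each. The neutrophil, monocyte and macrophage and plasmacytoid dendritic cell lists had 0 higher. Of stem and progenitor markers 4 of 10 were higher and 0 lower, and of megakaryocyte and platelet markers 3 of 8 were higher and 1 lower. Over all 15487 genes tested in it, 3785 were called, 2043 of them lower and the rest higher.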

How the data were processed

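RNA of c-Kit+ bone marrow cells was read from 6 libraries, made with a poly-A selecting, strand-marking kit, per the labels' protocols. The submitters' processing notes name HISAT2, HTSeq 0.9.1 and mm10 (GRCm38), without their roles. The deposited values are a signal: reads per gene after division by a library-wide factor (normalised counts), as read from the values. In each library 100% of values were whole multiples (tolerance 0.001) of the value of 1 read, and the factors, 0.956 to 1.04, equalled DESeq2 size factors recomputed from these recovered reads. Totals were 23297526 to 26793380 recovered reads, and 3 reads correspond to 2.88 to 3.14 normalised reads.

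Genes passing filterByExpr (minimum count 10, minimum total 15) were tested with limma 3.58.1 (trend) on log2(value + 1), WT against Runx1 KO, with Benjamini-Hochberg adjustment over 15410 genes and a threshold of 0.05; the pseudocount of 1 understates changes of low genes. Alternatives were edgeR 4.0.16 and DESeq2 1.42.0 on recovered reads, other pseudocounts, filters and scalings, a replicate block and left-out libraries. On simulated data limma called 64% of 100 genes changed by 1 and 83% of 100 changed by 2 on the log2 scale. It also called 11 unchanged genes, 6.96% of its calls. Far fewer genes were changed there than the 3370 called in the data, which alters the adjusted threshold. The simulated shares therefore need not hold for the data. Exact permutation tests went through every split of the libraries into groups of the same size. The 95% intervals used t quantiles from scipy 1.17.1. Coordinates and exon lengths are from GENCODE M21, which held 20077 of the 20097 listed IDs.

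The 9 genes and all lists were chosen with earlier results of these data known. The genes named were the 9, Cd79a, Cd79b, Runx1 and Kit, up to 5 pathway genes with the largest fall and rise past the threshold, called paralogues, and the 5 genes nearest to Cd22 in pattern; others are marked as named afterwards. Some genes these rules select, and ratios that need them, are not reported here.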

Additional observations from a re-analysis of the deposited data

How the results depend on the processing

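With 6 libraries kept, limma, edgeR, DESeq2 and the other pseudocounts, filters and scalings called 3182 to 3911 genes, and 6 to 8 of the 9 genes lower (8 by DESeq2, which adds Cd24a and Syk). Scaling to totals called 1 of the 9 genes higher and 4 pathway genes higher, and moved the share of higher calls over all genes from 48.4% of 3370 to 63.5% of 3755. Leaving out libraries gave 1367 to 3785 genes, 5 to 6 of the 9 genes lower and 0 higher, and 13 to 31 pathway genes lower and 1 to 4 higher; the lowest counts, 1367 and 13, came without Runx1 KO replicate 2, and 1767 and 2208 genes were called without Runx1 KO replicate 3 and WT replicate 2. Without replicate 1 of both groups, an alternative chosen after seeing the data, 4 pathway genes were higher. No direction reversed under any of these settings.

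Replicate numbers were not treated as pairing the samples: deviations of same-numbered libraries correlated at 0.287, 0.129 and -0.01, and WT replicate 2 correlated best with Runx1 KO replicate 3 (0.235). Adding a replicate block to the fit called 3843 genes, 7 of the 9 genes lower (Syk added, adjusted p 0.0390), 31 pathway genes lower and 4 higher. Depth limits Blk, Cr2 and Ms4a1 under the Runx1 KO label, where single libraries held as few as 5, 6 and 10 reads. With 3 libraries a group, differences of 2 on the log2 scale can be missed as well as smaller ones.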
